A study of Mus musculus with 12 samples.

Results

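The genes described here are Tardbp, which encodes TDP-43, and 7 other genes for RNA-binding proteins linked to amyotrophic lateral sclerosis (ALS) or closely related to such proteins: Matr3, Taf15, Ewsr1, Tia1, Hnrnpa1, Hnrnpa2b1 and Hnrnpa3. They were taken by name, with no filter on their values, from a count table of 25965 entries, and all 8 were found. These genes, and the gene lists used further on, were chosen with earlier results of these data known. RNA came from laser-captured lumbar lower motor neurons taken at 5 months of age from C57BL/6 mice. Their genotypes were wild type (+/+), heterozygotes with the Q331K change of TDP-43 knocked in on a single Tardbp copy (Q331K/+), or homozygotes with it on both copies (Q331K/Q331K). Each genotype had 4 libraries, 12 in all, and no other allele or agent is given in the labels. The labels do not say whether a library came from a single mouse or from pooled mice, so p-values measure the spread between these libraries, which may be technical.

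TDP-43 is a mainly nuclear protein that binds UG-rich RNA, represses the use of cryptic exons and limits the level of its own messenger RNA. In most patients with ALS it is lost from the nucleus of motor neurons and gathers in the cytoplasm. Its C-terminal tail is a low-complexity, prion-like region, and prion-like regions are also found in EWSR1, TAF15, TIA1 and the hnRNP A/B proteins. These regions can condense into granules, and changes that cause disease often fall in them.

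The libraries held 60886825 to 83504446 counts each, and the 8 genes took 0.0655% to 0.0806% of them. Values are given as CPM, the count of a gene relative to the scaled library total in the usual unit. Both heterozygote replicate 1 and replicate 1 of the homozygotes differed from the remaining 10 libraries in interneuron RNA, and are called the interneuron-poor libraries. Their summed CPM of 5 excitatory interneuron markers was 0.563 and 4.52, against 169 to 328 in the others, and that of 5 inhibitory interneuron markers was 3.59 and 0.870, against 170 to 426. Slc17a6, the vesicular glutamate transporter of excitatory interneurons, was at 0.563 and 4.52 CPM, which is the whole of the excitatory sum in those libraries. Chat, the acetylcholine-synthesising enzyme that defines motor neurons, reached 353 and 329 CPM there and 63.5 to 241 CPM elsewhere. Of 9 motor neuron markers, 8 were in the table and had counts in every library. They summed to 11264 and 11170 CPM in the interneuron-poor libraries, against 4479 to 8349 CPM in the others. Astrocyte markers summed to 554 and 628 CPM in the interneuron-poor libraries, against 898 to 1521 CPM, while oligodendrocyte, microglia and endothelial markers lay within the range of the other libraries. In bulk RNA of this kind fewer cells of a type cannot be told apart from less RNA per cell.

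No member passed in edgeR's quasi-likelihood test with Benjamini-Hochberg adjustment over the 16338 genes tested. All 8 passed the filter on low counts. In homozygotes against wild type 0 of 8 were called at an adjusted p below 0.05, where 0.00612% of all genes tested were called (1 gene, Spop). In heterozygotes against wild type 0 of 8 were called, against 0.0% of all genes. In homozygotes against heterozygotes 0 of 8 were called, again against 0.0%. At an unadjusted p below 0.05 there were also 0 of 8 in each comparison, where 4.82%, 4.1% and 2.97% of all genes passed. The libraries of the genotypes overlapped in CPM for each member in every comparison, while 3.41%, 3.24% and 2.03% of all genes did not overlap. DESeq2, which called 31, 27 and 17 genes in the 3 comparisons, and limma-voom, which called 1, 0 and 0, called no member either.

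**Figure D1:**
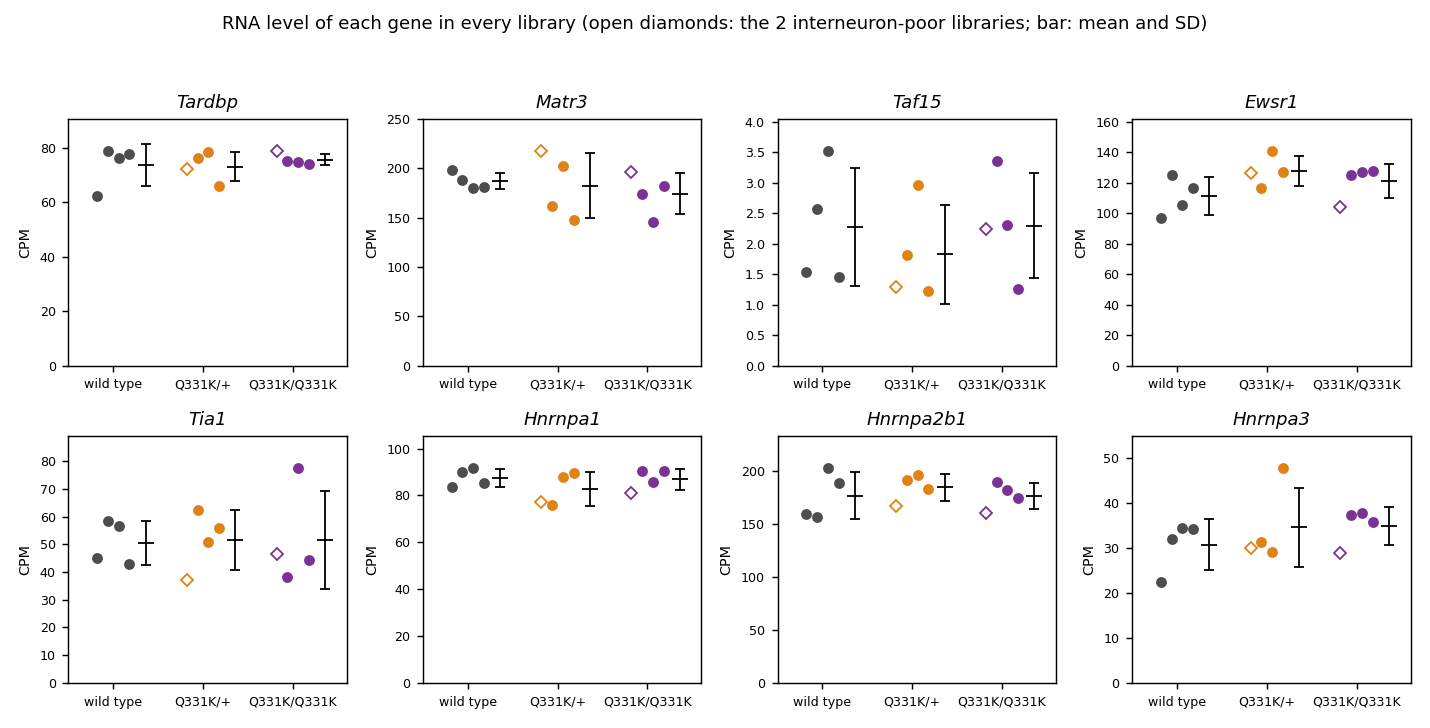
RNA level in CPM (y axis, from 0) of each of the 8 genes in each of 12 libraries, by genotype (x axis), with 4 libraries per genotype. Bars give the mean and SD, and open diamonds mark heterozygote replicate 1 and homozygote replicate 1; for each gene the 3 genotypes overlap.

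The counts add up both alleles of Tardbp. Mean Tardbp RNA with 0, 1 or 2 mutant copies differed by less than the spread between libraries. Tardbp (ENSMUSG00000041459, chromosome 4, 148612382 to 148627019, minus strand, GRCm38) was at 62.3, 78.7, 76.1 and 77.8 CPM in wild type replicates 1 to 4. Heterozygote replicates 1 to 4 had 72.2, 76.0, 78.2 and 65.7 CPM, and homozygote replicates 1 to 4 had 78.8, 75.0, 74.8 and 73.8 CPM. Wild type replicate 1 was the lowest of the 12 libraries, homozygote replicate 1 the highest, and the homozygotes lay within the span of the other libraries apart from that highest value. Mean Tardbp was 73.7 ± 7.7 CPM for wild type, 73.0 ± 5.5 for heterozygotes and 75.6 ± 2.2 for homozygotes (SD over 4 libraries). The log2 difference of homozygotes against wild type was 0.04 (SE 0.09, 95% interval -0.17 to 0.24), with an adjusted p of 0.999 in edgeR. As a ratio that interval runs from 0.889 to 1.18. On the same scale the difference was -0.01 for heterozygotes against wild type (interval -0.22 to 0.19) and 0.05 between the mutant genotypes, homozygotes minus heterozygotes (interval -0.16 to 0.26).

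Tardbp also varied little among libraries of the same genotype. Its SD within genotypes was 0.11 on the log2 CPM scale, and 4.37% of the genes tested, those of low level included, had a smaller one. The median SD was 0.38 over all genes tested and 0.21 over the 7213 genes at 20 CPM or more, where Tardbp lies. The ratio of its highest to its lowest library was 1.26. Masp2, a protease gene of the complement system on the opposite strand, shares 3118 bases with the Tardbp gene in the table and had 7.50% as many counts as Tardbp. The library kit does not keep strand, so reads in the shared stretch cannot be told apart. Masp2 averaged 5.51 ± 1.1 CPM in wild type and 5.56 ± 1.8 in homozygotes (SD, n = 4 each), and its log2 difference was 0.01 with an SE of 0.29 and an adjusted p of 1.00 in edgeR.

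By the likeness measure used, the genes nearest to Tardbp over 12 libraries were Fam92a, Mrpl15, which encodes a protein of the mitochondrial ribosome, and Alyref, an adaptor for export of messenger RNA. Likeness was the root mean square difference between centred log2 CPM values, over 3757 genes within 2-fold of Tardbp in mean level. It was 0.06 for Fam92a, 0.08 for Mrpl15 and 0.08 for Alyref, against a median of 0.22 over the candidates. The measure is also small for any gene that itself varies little between libraries, as Tardbp does. Fam92a averaged 100.3 ± 5.9 CPM, Mrpl15 129.7 ± 10.8 and Alyref 81.2 ± 7.5 (SD, n = 12 libraries).

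Matr3 encodes matrin 3, a nuclear matrix protein that binds RNA and DNA and is changed in some families with ALS. Its genotype means differed by less than the spread between libraries. Wild type replicates 1 to 4 had 198, 188, 180 and 182 CPM of Matr3 (ENSMUSG00000037236, chromosome 18, 35562158 to 35592045, plus strand). Heterozygotes had 218, 162, 203 and 148 CPM, and homozygotes 196, 174, 146 and 182 CPM. The wild type libraries lay close together inside the wider span of the heterozygotes, whose replicate 1 was the highest of all 12. Homozygotes against wild type gave a log2 difference of -0.10 (95% interval -0.38 to 0.18, SE 0.13, and 0.999 as adjusted p in edgeR), and that of heterozygotes against wild type -0.03 (interval -0.31 to 0.24). Without heterozygote replicate 1 and homozygote replicate 1, both differences were larger, at -0.16 and -0.13, and neither passed (adjusted p = 0.999 for both in edgeR). Leaving out homozygote replicate 3, the lowest library, instead moved that of homozygotes against wild type to -0.02.

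Ewsr1 and Taf15 encode related nuclear RNA-binding proteins with prion-like regions that act in transcription and splicing. Ewsr1 had the smallest p-value of any member, in heterozygotes against wild type. Wild type replicates 1 to 4 had 96.6, 125, 106 and 117 CPM of Ewsr1 (ENSMUSG00000009079, chromosome 11, 5069689 to 5099266, minus strand). Heterozygotes had 127, 116, 141 and 127 CPM, and homozygotes 104, 125, 127 and 128 CPM. Of the heterozygotes, replicates 1, 3 and 4 lay above every wild type library, and replicate 2 lay below wild type replicates 2 and 4. Mean Ewsr1 was 111 ± 12 CPM for wild type, 128 ± 10 for heterozygotes and 121 ± 11 for homozygotes (SD over 4 libraries). The log2 difference of heterozygotes against wild type was 0.20 (SE 0.10, interval -0.02 to 0.43, unadjusted p = 0.0755 and adjusted p = 0.999 in edgeR), and that of homozygotes against wild type 0.13 (interval -0.10 to 0.35). A two-sided exact permutation test on log2 CPM of heterozygotes against wild type gave p = 0.0857, where the smallest p that 4 against 4 libraries allow is 0.0286. Rhbdd3, a gene of the rhomboid family on the opposite strand, shares 341 bases with Ewsr1, whose merged exons cover 5907. Over its whole length it had 28.2% as many counts as Ewsr1, and reads in the shared bases cannot be assigned without strand. Rhbdd3 itself differed by 0.13 in the same comparison (SE 0.16, adjusted p = 0.999 in edgeR).

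Taf15 was the least abundant member, and its data bound a genotype difference only loosely. Wild type replicates 1 to 4 had 116, 161, 237 and 123 counts of Taf15 (ENSMUSG00000020680, chromosome 11, 83473086 to 83506743, plus strand), which is 1.53, 2.58, 3.52 and 1.46 CPM. Heterozygotes had 1.28, 1.82, 2.97 and 1.23 CPM from 91, 144, 198 and 91 counts. Homozygotes had 2.25, 3.36, 2.31 and 1.25 CPM from 155, 233, 145 and 95 counts. Each genotype held a library at or below 1.46 CPM and another at or above 2.97 CPM, and the genotypes overlapped throughout. The interval for homozygotes against wild type was -1.004 to 1.03 on the log2 scale (difference 0.01, SE 0.47, adjusted p = 1.00 in edgeR), which spans ratios from 0.499 to 2.04. For heterozygotes against wild type it was -1.34 to 0.70 around -0.32, and for homozygotes against heterozygotes -0.69 to 1.35 around 0.33.

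Tia1 encodes a protein that nucleates stress granules and regulates splicing and translation, and it varied widely within genotypes. Wild type replicates 1 to 4 had 44.9, 58.4, 56.6 and 42.8 CPM of Tia1 (ENSMUSG00000071337, chromosome 6, 86404219 to 86433403, plus strand). Heterozygotes had 37.2, 62.6, 50.7 and 55.9 CPM, and homozygotes 46.4, 38.4, 77.5 and 44.3 CPM. Homozygote replicate 3 was the highest of the 12 libraries and the other homozygotes were among the lower ones. For homozygotes against wild type the log2 difference was 0.03 (95% interval -0.45 to 0.51, SE 0.22, and 1.00 as adjusted p in edgeR). Leaving out homozygote replicate 3 moved it to -0.23.

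The hnRNP A/B proteins package nascent transcripts, regulate splicing and bind TDP-43. Hnrnpa2b1 and Hnrnpa1 varied little between libraries, and Hnrnpa3 varied more. Of the counts of these 3 genes, not corrected for length, Hnrnpa2b1 took 60.1% ± 2.3, Hnrnpa1 28.8% ± 1.9 and Hnrnpa3 11.1% ± 1.6 (SD, n = 12 libraries). Hnrnpa1 had the smallest spread within genotypes of any member, an SD of 0.09 on the log2 CPM scale. Of the genes tested, those of low level included, 1.88% had a smaller one.

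Wild type replicates 1 to 4 had 83.4, 89.9, 91.7 and 85.4 CPM of Hnrnpa1 (ENSMUSG00000046434, chromosome 15, 103240432 to 103244955, plus strand). Heterozygotes had 77.1, 75.8, 88.0 and 89.7 CPM, and homozygotes 81.1, 90.5, 85.8 and 90.3 CPM. Heterozygote replicates 1 and 2 were the lowest of the 12 libraries, and the other heterozygotes lay among the wild type values. The log2 difference of heterozygotes against wild type was -0.08 (95% interval -0.27 to 0.10, SE 0.09, and 0.999 as adjusted p in edgeR), and that of homozygotes against wild type -0.01 (interval -0.20 to 0.17).

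Hnrnpa2b1 (ENSMUSG00000004980, chromosome 6, 51460434 to 51469894, minus strand) had 159, 157, 203 and 189 CPM in wild type replicates 1 to 4. Heterozygotes had 167, 192, 196 and 183 CPM, and homozygotes 160, 189, 182 and 174 CPM. The lowest and the highest libraries were both wild type, so both mutant genotypes fell inside the wild type range. Between homozygotes and wild type the log2 difference was -0.0031 (95% interval -0.22 to 0.21, SE 0.10, and 1.00 as adjusted p in edgeR), and that of heterozygotes against wild type 0.06 (interval -0.16 to 0.28).

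Hnrnpa3 (ENSMUSG00000059005, chromosome 2, 75659261 to 75669407, plus strand) had 22.3, 31.9, 34.3 and 34.1 CPM in wild type replicates 1 to 4. Heterozygotes had 29.9, 31.3, 29.1 and 47.6 CPM, and homozygotes 28.7, 37.3, 37.6 and 35.6 CPM. Homozygote replicates 2 to 4 lay above every wild type library, while homozygote replicate 1 lay below 3 of them. The log2 difference of homozygotes against wild type was 0.18 (95% interval -0.23 to 0.60, SE 0.19, and 0.996 as adjusted p in edgeR). It was 0.27 without heterozygote replicate 1 and homozygote replicate 1 (adjusted p = 0.999 in edgeR). Leaving out wild type replicate 1, the lowest library, moved it to 0.07. Both Hnrnpa3 and Hnrnpa1 are uncertain, because reads could be split with near-identical copies. The annotation holds 35 copies of Hnrnpa3 and 14 of Hnrnpa1 with at least 90% identity over 500 bases. Of these, 4 and 1 have an entry in the table, with 14.7% and 0.262% as many counts as the gene itself. By the same rule Ewsr1 has 3 copies, and Tardbp, Matr3 and Hnrnpa2b1 have 1 each, all without an entry in the table. Annotated protein-coding genes on the same strand, also without an entry, share 25551 bases with Matr3 (Gm28285) and 6746 with Tia1 (Gm44790). Reads split with these genes and copies cannot be seen here. Gm6793, the copy of Hnrnpa3 with the most counts, averaged 4.44 ± 1.1 CPM in wild type and 4.17 ± 1.1 in homozygotes (SD, n = 4 each).

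**Figure D2:**
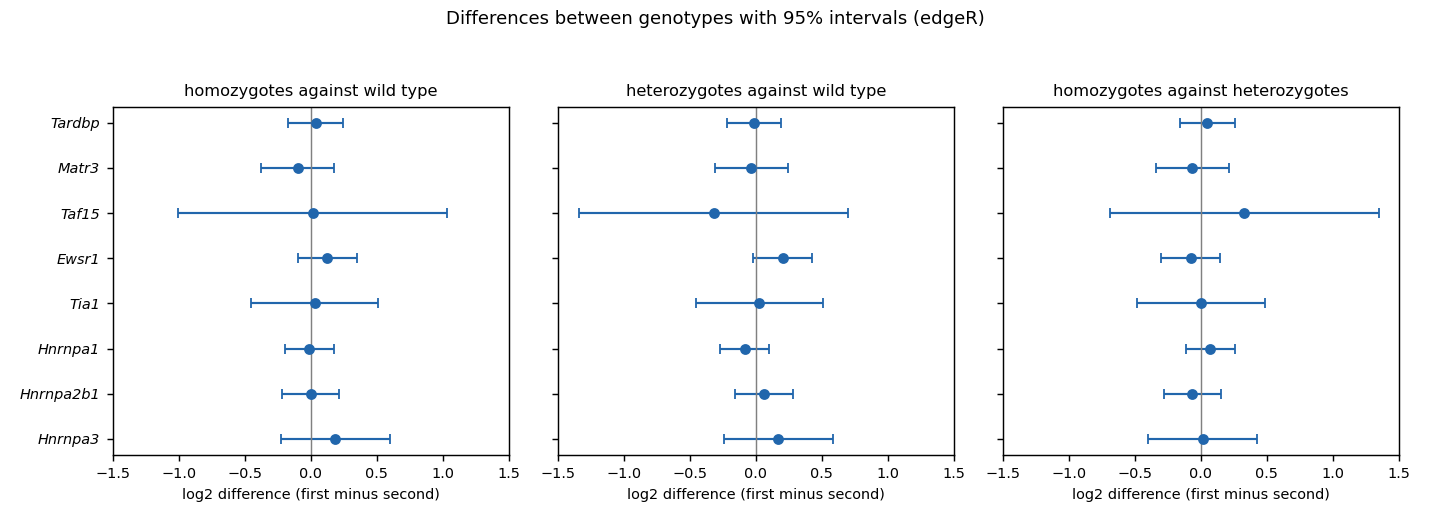
Log2 differences between genotypes (x axis, first genotype minus second) for each of the 8 genes (y axis), in 3 panels for the 3 comparisons. Points are edgeR estimates and lines 95% intervals; each line crosses 0, and the line of Taf15 is the longest.

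Across the set, the median log2 difference of the 8 members was 0.02 in homozygotes against wild type, 0.0065 in heterozygotes against wild type and 0.0075 in homozygotes against heterozygotes. Over all 16338 genes tested the medians were -0.0032, -0.0013 and -0.00050. The members higher than the second genotype numbered 5, 4 and 5 of 8 in the same order, and 7, 4 and 4 of 8 without the interneuron-poor libraries. Of all genes tested 49.4%, 49.7% and 49.8% were higher, with all 12 libraries, and no such share is given without the interneuron-poor libraries. With 1 library left out, the members' median ran from -0.03 to 0.08 in homozygotes against wild type. The summed CPM of the 8 genes was 719.8 ± 36 for wild type, 738 ± 34 for heterozygotes and 723 ± 17 for homozygotes (SD over 4 libraries). These comparisons share libraries, so their values are given side by side only. Heterozygote replicate 1 and homozygote replicate 1 lay within the range of the other 10 libraries for 5 of 8 members, the exceptions being Tardbp, Matr3 and Tia1.

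Apart from shares and ratios of counts, which are not corrected for length, levels of the members were ranked per length of transcript, as CPM per kilobase. With the merged exons of GENCODE M21 inside the table's gene bounds as the length, the order from high to low was Hnrnpa1, Hnrnpa2b1, Matr3, Ewsr1, Tardbp, Hnrnpa3, Tia1 and Taf15. Hnrnpa1 stood at 44.7 ± 2.8 CPM per kilobase, Tardbp at 9.51 ± 0.66 and Taf15 at 0.729 ± 0.28 (SD, n = 12 libraries). The ranges of neighbours overlapped between Hnrnpa2b1 and Matr3, Matr3 and Ewsr1, Tardbp and Hnrnpa3, and Hnrnpa3 and Tia1, so their order is not settled beyond the spread of the libraries. With the longest transcript as the length the order was Hnrnpa2b1, Ewsr1, Matr3, Hnrnpa1, Tia1, Tardbp, Hnrnpa3 and Taf15. Taf15 was last by either length, at 1.03 ± 0.40 CPM per kilobase by the second, and its range did not overlap that of the next gene. Hnrnpa1 fell from rank 1 to rank 4; the table ends the gene 1737 bases before GENCODE M21 does and its length was 1918 bases by the first measure and 3118 by the second. Tia1 moved from 3.26 to 11.5 CPM per kilobase, and its merged exons cover 15748 bases and its longest transcript 4477.

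**Figure D3:**
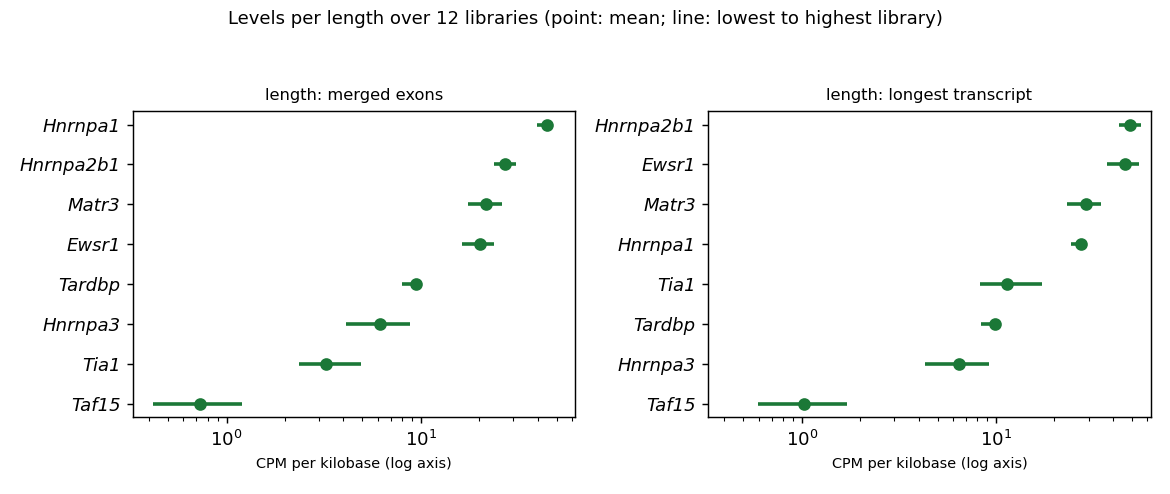
Level of each gene in CPM per kilobase (x axis, logarithmic) over 12 libraries, with merged exons (left) or the longest transcript (right) as the length. Points are means and lines run from the lowest to the highest library; Taf15 is lowest in both panels.

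Ratios between related genes within a library do not depend on how libraries are scaled, and none passed a test between genotypes. They are not corrected for the length of the genes. The count of Hnrnpa2b1 was 2.02 ± 0.23 times that of Hnrnpa1 for wild type, 2.24 ± 0.21 times for heterozygotes and 2.03 ± 0.093 times for homozygotes (SD over 4 libraries). Tia1 had 1.49 ± 0.29, 1.25 ± 0.19 and 1.23 ± 0.31 times the count of its paralog Tial1 in the same order. Mean Tia1 was level, at 50.7 ± 7.9, 51.6 ± 10.8 and 51.6 ± 17.6 CPM, while Tial1 was at 34.4 ± 4.9, 40.9 ± 2.8 and 41.6 ± 5.2 CPM. For Tial1 the log2 difference of homozygotes against wild type was 0.27 (SE 0.13, adjusted p = 0.986 in edgeR). The ratio of Taf15 to Ewsr1 was 0.0206 ± 0.0091, 0.0141 ± 0.0054 and 0.0191 ± 0.0072. Over the 9 comparisons of log2 ratios, the smallest p of a two-sided exact permutation test was 0.114, for Hnrnpa2b1 to Hnrnpa1 in homozygotes against heterozygotes (difference -0.14), with an adjusted p of 0.471 over the 9. The smallest p that 4 against 4 libraries allow is 0.0286.

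**Figure D4:**
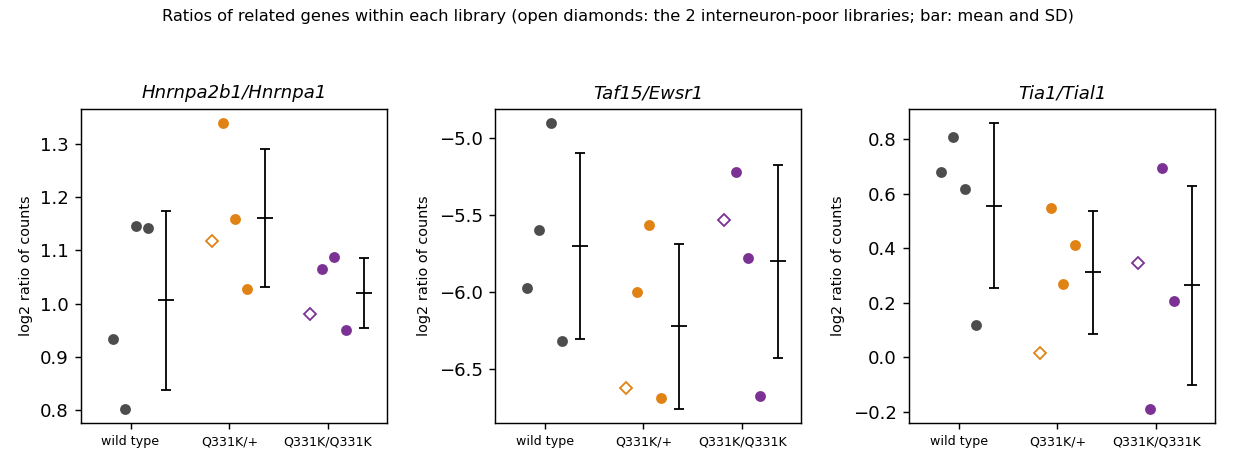
Log2 ratio of counts (y axis) of Hnrnpa2b1 to Hnrnpa1, Taf15 to Ewsr1 and Tia1 to Tial1 in each library, by genotype (x axis), with 4 libraries per genotype. Bars give the mean and SD and open diamonds mark heterozygote replicate 1 and homozygote replicate 1; genotypes overlap in all 3 panels.

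Genes that work with these proteins were described from 6 lists, which share some genes. In each list, 0 genes passed the edgeR test in any comparison. Beside the counts of higher genes below, 49.4% of all genes tested were higher in homozygotes than in wild type. The share was 49.7% in heterozygotes against wild type and 49.8% in homozygotes against heterozygotes. These shares are from all 12 libraries, and none is given for fits without the interneuron-poor libraries.

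Of the other hnRNP genes, all 24 of 24 were tested and 10 were higher in homozygotes than in wild type, with a median log2 difference of -0.04. Those with the highest CPM were Hnrnpk, at 349 ± 29 CPM in wild type and 325 ± 25 in homozygotes, Pcbp1, at 297 ± 17 and 290 ± 18, and Hnrnpc, at 219 ± 12 and 209 ± 9.4 (SD, n = 4 each). These genes encode abundant nuclear proteins that bind poly(C) or poly(U) stretches.

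Of 6 paraspeckle genes, whose proteins assemble on the long RNA Neat1, 5 were higher in homozygotes than in wild type (median 0.06). Nono had 92.5 ± 14 and 88.9 ± 13 CPM, Pspc1 51.2 ± 4.8 and 53.3 ± 1.4, and Sfpq 35.0 ± 2.8 and 36.5 ± 6.4 in wild type and homozygotes. Of 16 stress granule genes, 11 were higher (median 0.04). The granule nucleator G3bp2 was at 429 ± 35 and 364 ± 32 CPM (log2 difference -0.24, SE 0.10, adjusted p = 0.986 in edgeR), its partner Caprin1 at 156 ± 18 and 180 ± 33, and the RNA helicase gene Ddx3x at 149 ± 19 and 142 ± 6.6. Of 24 nuclear transport genes, 8 were higher (median -0.07), with the small GTPase Ran at 501 ± 51 and 519 ± 33 CPM, Rangap1 at 288 ± 36 and 270.1 ± 20, and Ranbp1 at 203 ± 21 and 196 ± 24 (SD, n = 4 each).

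Of 16 genes known as targets of TDP-43 in splicing or stability, 4 were higher in homozygotes than in wild type and the median log2 difference was -0.24, against -0.0032 over all genes. Without heterozygote replicate 1 and homozygote replicate 1 the median was -0.09 and 2 of 16 were higher. It was also -0.09 without homozygote replicate 1 alone, -0.13 without homozygote replicate 2, -0.14 without wild type replicate 4, -0.14 under the stricter filter and -0.14 with only the 8 libraries compared. Each of these settings filtered the genes anew, so targets of low level may have left the list. How many of the 16 remained is not given, so the medians may not cover the same genes. Of its 3 genes with the highest CPM, Nefl and Stmn2 had higher means in homozygotes than in wild type and Eif4h a lower one. Nefl, the light neurofilament chain, was at 8505 ± 1874 CPM in wild type and 10219 ± 3822 in homozygotes, and Stmn2, a regulator of axonal microtubules, at 1550 ± 267 and 2010 ± 608. Eif4h, a translation factor, was at 370.2 ± 11 and 363 ± 16 (SD, n = 4 each). The highest Nefl and Stmn2 values of the homozygotes were both in homozygote replicate 1, at 15943 and 2915 CPM. The other homozygotes had 8024 to 8533 CPM of Nefl and 1631 to 1812 CPM of Stmn2. The log2 difference of homozygotes against wild type was 0.26 for Nefl (SE 0.28, adjusted p = 0.998 in edgeR). For Stmn2 it was 0.38 (SE 0.23, adjusted p = 0.986 in edgeR). The part of homozygote replicate 1 in the result was not tested beyond leaving it out. Of 10 other ALS genes of RNA metabolism 7 were higher (median 0.04), with Elp3 at 95.3 ± 10.4 and 104 ± 16 CPM, Atxn2 at 93.7 ± 8.1 and 95 ± 10.8, and Gle1, which acts in export of messenger RNA, at 70.5 ± 10.8 and 65.0 ± 6.5 (SD, n = 4 each).

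In heterozygotes against wild type the lists' medians ran from -0.06 (TDP-43 targets, 7 of 16 higher) to 0.01 (stress granule genes, 9 of 16). In homozygotes against heterozygotes they ran from -0.13 (TDP-43 targets, 4 of 16) to 0.04 (stress granule genes, 10 of 16). Without the interneuron-poor libraries 5 of 16 stress granule genes were higher in the first of these comparisons, with a median of -0.05. In the second 15 of 16 were higher, with a median of 0.05. Of the other lists, higher genes in the first numbered 12 of 24 other hnRNP, 3 of 6 paraspeckle and 9 of 24 nuclear transport genes. TDP-43 targets had 7 of 16 and other ALS genes 5 of 10. In the second these lists had 13, 4, 12, 4 and 5 higher in the same order. No share of all genes is given for this setting.

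Spop, an adaptor of a cullin 3 ubiquitin ligase and no member, was the gene called in homozygotes against wild type. It was at 172, 164, 164 and 157 CPM in wild type replicates 1 to 4, 129, 137, 123 and 126 in heterozygotes and 110, 115, 100.2 and 106 in homozygotes, so the genotypes did not overlap. Its log2 difference of homozygotes against wild type was -0.61 (SE 0.07, adjusted p = 0.0340 in edgeR), which lies outside the interval of each member except Taf15. Leaving out any library raised the adjusted p of Spop to between 0.0566 and 0.263.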

How the data were processed

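RNA-seq libraries of laser-captured neurons were made with the PicoPure, SMART-seq v4 and Nextera XT kits, per the labels' protocols. SMART-seq v4 and Nextera XT carry no molecular identifiers here and do not keep strand. The authors deposited raw read counts per gene for all 12 libraries. Trim Galore 0.4.3, HISAT2 2.0.5 and GRCm38 are named in the submitters' processing notes; the counting program, its annotation and its strand setting are not given in the sources used here. Libraries of the same genotype differed by more than counting error in each of 18 pairs (smallest chi-square per degree of freedom 61.0).

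Genes were filtered with filterByExpr, scaled by TMM (factors 0.94 to 1.03) and tested with edgeR 4.0.16 (R 4.3.3) by the quasi-likelihood test on 3 genotype groups, two-sided, with Benjamini-Hochberg adjustment over 16338 genes and a threshold of 0.05. CPM values were computed from the deposited counts. Log2 CPM values have a prior count of 2. edgeR's robust option was tried with its result in view and is an added alternative, not the reported fit. Exact permutation tests used scipy 1.17.1. Lengths, overlaps and copies (BLAST 2.17.0) are from GENCODE M21. The pipeline was tested on simulated data for homozygotes against wild type: over 16338 genes it recovered 0, 1, 15 and 30 of 50 genes changed 1.25-, 1.5-, 2- and 4-fold, with 2 false calls. Among changed genes at 20 CPM or more it recovered 0 of 21, 1 of 16, 12 of 14 and 24 of 25 in the same order. Each member except Taf15 averaged above that level. Members and lists were chosen with earlier results of these data known. Named genes are the members, the 3 most abundant genes tested of each list, the 3 nearest to Tardbp, genes called, and genes that overlap or copy a member. Alternatives were DESeq2 1.42.0, limma-voom (limma 3.58.1) with quality weights, DESeq2 size factors, no filter or a stricter one (1 CPM in 4 libraries and 100 counts in all), a block for the replicate number, a fit to only the 8 libraries compared, and libraries left out. Some items are not reported here.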

Additional observations from a re-analysis of the deposited data

Results flagged for a closer look

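A library far from the other 3 of its genotype was looked for in 87 groups of 4 libraries, and 10 were found; chance flags about 1 in 20 groups. Among the members there were 3. Tardbp in wild type replicate 1 was at 62.3 CPM, against 76.1 to 78.7 CPM in the other wild type libraries. Ewsr1 in homozygote replicate 1 was at 104 CPM, against 125 to 128 CPM. Hnrnpa3 in heterozygote replicate 4 was at 47.6 CPM, against 29.1 to 31.3 CPM.

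The other 7 were in genes of the lists. Homozygote replicate 1 and heterozygote replicate 1, which hold little interneuron RNA, account for 5 of them. Nefl was at 15943 CPM in homozygote replicate 1, against 8024 to 8533 CPM. Stmn2 was at 2930.2 CPM in heterozygote replicate 1, against 1573 to 1662 CPM, and at 2915 CPM in homozygote replicate 1, against 1631 to 1812 CPM. Heterozygote replicate 1 also had Ran at 576 CPM, against 440 to 445 CPM, and Ddx3x at 172 CPM, against 129 to 135 CPM. Hnrnpc was at 195 CPM in homozygote replicate 3, against 213 to 214 CPM, and Atxn2 at 81.6 CPM in wild type replicate 2, against 96.9 to 99.2 CPM. The part of interneuron RNA in these values was not tested.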

How the results depend on the processing

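In 504 alternative values of the members' 24 log2 differences under 21 settings, 0 passed (smallest adjusted p 0.709), and 55 values in 13 of the 24 had the other sign; the cause was not tested. Homozygotes against wild type: limma-voom gave -0.0049 (Tardbp), -0.039 (Taf15), -0.030 (Tia1) and 0.0073 (Hnrnpa2b1); Hnrnpa2b1 was 0.0027 under the stricter filter and 0.00059 under the replicate block. Without both interneuron-poor libraries Hnrnpa1 was 0.024 and Hnrnpa2b1 0.044. For Tia1 in homozygotes against heterozygotes (0.00066), DESeq2 gave -0.0013, limma-voom -0.11, DESeq2 size factors -0.0014, the replicate block -0.019 and leaving out both libraries -0.081.

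Genes called in homozygotes against wild type numbered 1, but 31 with DESeq2, 0 without the filter, 0 with only the 8 libraries, 0 without both interneuron-poor libraries and 0 with any 1 library left out; DESeq2 called 27 in heterozygotes against wild type and 17 in homozygotes against heterozygotes. The robust option called 1, 0 and 0. For the pairing check, same-numbered libraries had correlations of -0.05 to 0.45, not all over 0.1, so pairing was not established. All 3 pairs numbered 1 had 0.11 to 0.45. The 0.45 was between the interneuron-poor libraries, heterozygote replicate 1 and homozygote replicate 1, and the other pairs numbered 1 had 0.11 each. The replicate block called 1, 0 and 0 genes.

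With each library left out in turn, the log2 differences that changed sign had these ranges. In homozygotes against wild type they ran from -0.028 to 0.073 for Tardbp, -0.23 to 0.31 for Taf15, -0.23 to 0.15 for Tia1, -0.032 to 0.027 for Hnrnpa1, -0.052 to 0.073 for Hnrnpa2b1, -0.053 to 0.061 for the log2 ratio of Hnrnpa2b1 to Hnrnpa1, -0.31 to 0.19 for the log2 ratio of Taf15 to Ewsr1. In heterozygotes against wild type they ran from -0.083 to 0.043 for Tardbp, -0.13 to 0.062 for Matr3, -0.073 to 0.16 for Tia1, -0.017 to 0.25 for Hnrnpa3. In homozygotes against heterozygotes they ran from -0.00024 to 0.084 for Tardbp, -0.16 to 0.031 for Matr3, -0.26 to 0.12 for Tia1, -0.059 to 0.21 for Hnrnpa3, -0.19 to 0.10 for the log2 ratio of Tia1 to Tial1. Of 21 medians of the members and lists, 17 changed sign in this way, among them in homozygotes against wild type the members (-0.027 to 0.081), other hnRNP genes (-0.065 to 0.019), stress granule genes (-0.027 to 0.13) and other ALS genes (-0.0020 to 0.082). Taf15 had the fewest counts, 91 to 237 per library, and the highest biological coefficient of variation of the members, 0.51 against 0.11 to 0.23.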
